A study of Mus musculus with 4 samples.

Results

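The 40 genes described here supply fatty acids to the mitochondria, burn them, store them in lipid droplets and control these steps, and they were taken as a list of gene symbols. All 40 were found among the 27267 genes of the series, as 52 of 36065 RefSeq transcript records, with reads added up over the records of each gene. Levels are CPM, read counts brought to a common scale over the 4 libraries, and ratios are log2 ratios of CPM. Of the 40 genes, 38 reached a mean level of 1 CPM and were compared. The other 2, Plin5 and Ucp3, lay below that limit and are given by their reads alone.

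RNA had been sequenced from neonatal cardiomyocytes (CD1 mice, postnatal day 1), the beating muscle cells of the newborn heart, kept in culture. One library came from mock-transfected cells and the other 3 from cells given a 50 nM microRNA mimic: cel-miR-67, a nematode microRNA used as a control, or either of 2 human microRNAs, hsa-miR-199a-3p in 1 library and, in another, hsa-miR-590-3p. Cells were collected 72 h after transfection. With 1 library per condition there was no replicate, so no test was made, and the difference between the 2 control libraries was the only measure of spread.

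The heart draws most of its energy from fatty acids, and in mice the switch from glucose to fatty acids as the main fuel takes place around birth. Fatty acids enter the cell through carriers, are bound to coenzyme A, cross the inner mitochondrial membrane as carnitine esters, and are shortened step by step by beta-oxidation, whose electrons pass through the electron transfer flavoproteins to the respiratory chain. The PPAR nuclear receptors bind fatty acids and, with the ERR receptors and the PGC-1 coactivators, drive transcription of many of these genes. MicroRNAs pair through their seed, bases 2 to 8, with messenger RNAs and lower their stability or translation. The mature mouse miR-199a-3p in RefSeq (GRCm38.p6), encoded on chromosomes 1 and 9, is shown to give the seed of that treatment in capitals; the entry for mouse miR-199b-3p on chromosome 2 has the same letters.
mmu-miR-199a-3p: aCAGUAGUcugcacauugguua

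The libraries held between 31638930 and 38745528 reads, and 67.6% to 68.7% of them were placed uniquely. Cardiomyocyte markers were abundant, with a summed level of 8 genes between 34200 and 51800 CPM, and Myh6 alone, the main myosin heavy chain of the adult mouse heart, had 13700 to 20200 CPM. Fibroblast markers summed to between 9940 and 11700 CPM over 8 genes, so the cultures were not of 1 cell type. Adipocyte markers, those of brown fat aside, were near absent. Cfd, Cidec and Lep had 0 reads in every library. The 6 markers together had 1 read in mock, 6 in hsa-miR-199a-3p and 0 in the other 2 libraries. In such bulk samples, fewer cells of a type and less RNA per cell cannot be told apart.

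Against the controls, the 40 genes split into a large group with small decreases and a few genes that stood well apart. Under hsa-miR-590-3p, 27 of the 38 compared genes (71.1%) lay below both controls and 4 above both, against 36.6% below and 35.6% above among all 13502 genes compared. Under hsa-miR-199a-3p, 23 (60.5%) lay below and 7 above, against 41.9% and 40.2%. The medians were -0.16 against cel-miR-67 and -0.17 against mock under hsa-miR-590-3p, and -0.13 and -0.16 under hsa-miR-199a-3p, while the median of all genes lay between -0.01 and 0.00. The median ratio of the 38 genes between cel-miR-67 and mock was 0.04. Scaled to library totals alone, 22 genes lay below and 5 above under hsa-miR-590-3p, beside 24% and 49% of all genes, and 16 below and 12 above under hsa-miR-199a-3p, beside 32.7% and 50.7%.

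**Figure D1:**
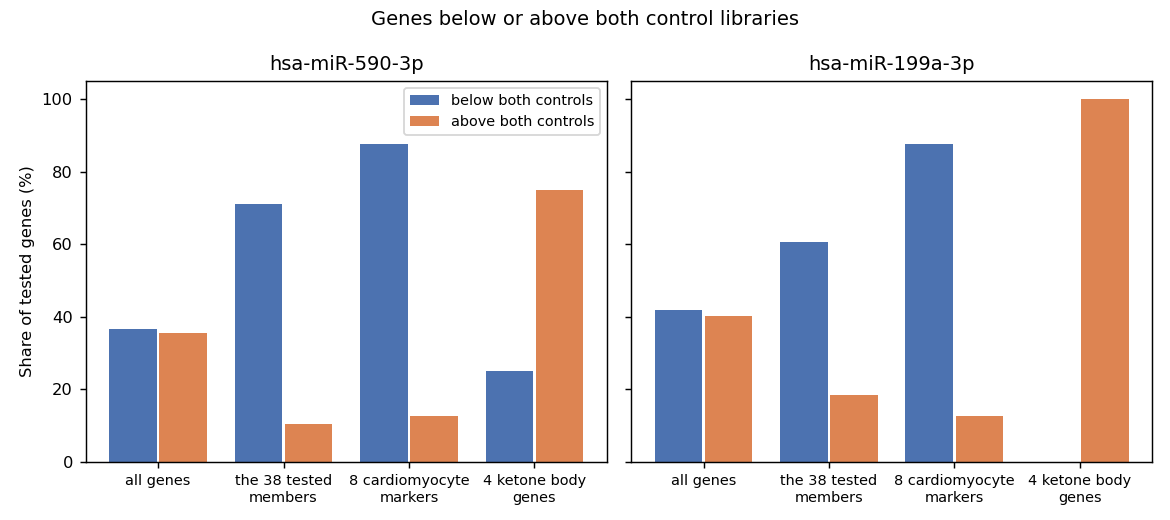
Share of tested genes, in percent, that lay below both controls (blue) or above both (orange) under each microRNA, for all 13502 genes, the 38 tested genes of fatty acid use, 8 cardiomyocyte markers and 4 genes of ketone body metabolism. The genes of fatty acid use had 71.1% and 60.5% below, the cardiomyocyte markers 87.5% under each microRNA, and the ketone body genes 75% and 100% above.

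The cardiomyocyte markers moved in the same direction and further. Of the 8 markers, 7 lay below both controls under each microRNA, their median ratios to cel-miR-67 and mock were -0.34 and -0.50 for hsa-miR-590-3p and -0.40 and -0.57 for hsa-miR-199a-3p, and their summed level was 51800 CPM in mock, 46900 in cel-miR-67, 35200 in hsa-miR-590-3p and 34200 in hsa-miR-199a-3p. The summed level of the 40 genes was 4770, 4540, 4140 and 4190 CPM in the same order. The fibroblast markers summed to 10400, 9940, 11300 and 11700 CPM, a sum carried by the collagens Col1a1, Col1a2 and Col3a1. Counted by gene, 4 of the 8 lay above and 2 below both controls under hsa-miR-590-3p. Under hsa-miR-199a-3p 3 lay above and 5 below, 4 of them by at least 1.5-fold (Postn, Dcn, Lum and Pdgfra), and the medians were -0.63 and -0.35. The smooth muscle and pericyte markers summed to 4490, 5400, 5140 and 6440 CPM, carried by Acta2, and under hsa-miR-199a-3p 4 of the 8 lay above both controls and 3 below, namely Rgs5, Pdgfrb and Tagln. The part of these markers in the lower level of the fatty acid genes was not tested.

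Few genes moved far. At 2-fold against both controls, 2 of the 38 were lower under hsa-miR-590-3p and 0 higher, where 0.230% of all genes were lower and 0.356% higher. Under hsa-miR-199a-3p the same 2 genes, Pparg and Angptl4, were lower and 0 were higher, against 2.34% and 2.40% of all genes. Both were highest in the controls and reached the mean of 1 CPM with help from the controls, so their place in any count here supports nothing. At 1.5-fold, 2 were lower and 0 higher under hsa-miR-590-3p (1.36% and 2.68% of all genes), and 3 were lower, with Cd36 added, and 1 higher, Plin2, under hsa-miR-199a-3p (8.38% and 6.72%). Under hsa-miR-199a-3p the share of the 38 genes lower at 1.5-fold, 7.89%, was thus near that of all genes. The microRNAs were compared with the same 2 control libraries, so a gene that happened to be high in both controls is low under both microRNAs.

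The 2 control libraries lay close together for these genes. No gene of the 38 differed by 1.5-fold or more between cel-miR-67 and mock, where 2.82% of all genes were higher and 4.18% lower at 1.5-fold, and 0.652% higher and 1.33% lower at 2-fold. Single ratios had a range from -0.36 to 0.36, and the largest difference, 1.29-fold, was that of Decr1, the reductase needed for polyunsaturated fatty acids. The median size of the difference was 0.11 for these genes and 0.15 for all genes, of which 16.8% differed by more than Decr1. Taken as a limit after the values were seen, the size of the Decr1 difference was exceeded against both controls by 4 genes under hsa-miR-590-3p, all lower, namely Acaa2, Pparg, Angptl4 and Pdk4 (10.5% of the genes, against 4.29% of all genes lower and 6.31% higher). It was exceeded by 8 genes under hsa-miR-199a-3p: 7 lower, namely Acadm, Cd36, Ppara, Pparg, Ppargc1a, Ppargc1b and Angptl4, and Plin2 higher. Those 7 make up 18.4% of the 38, close to the 16.6% of all genes that were lower by as much, and 13.2% of all genes were higher.

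**Figure D2:**
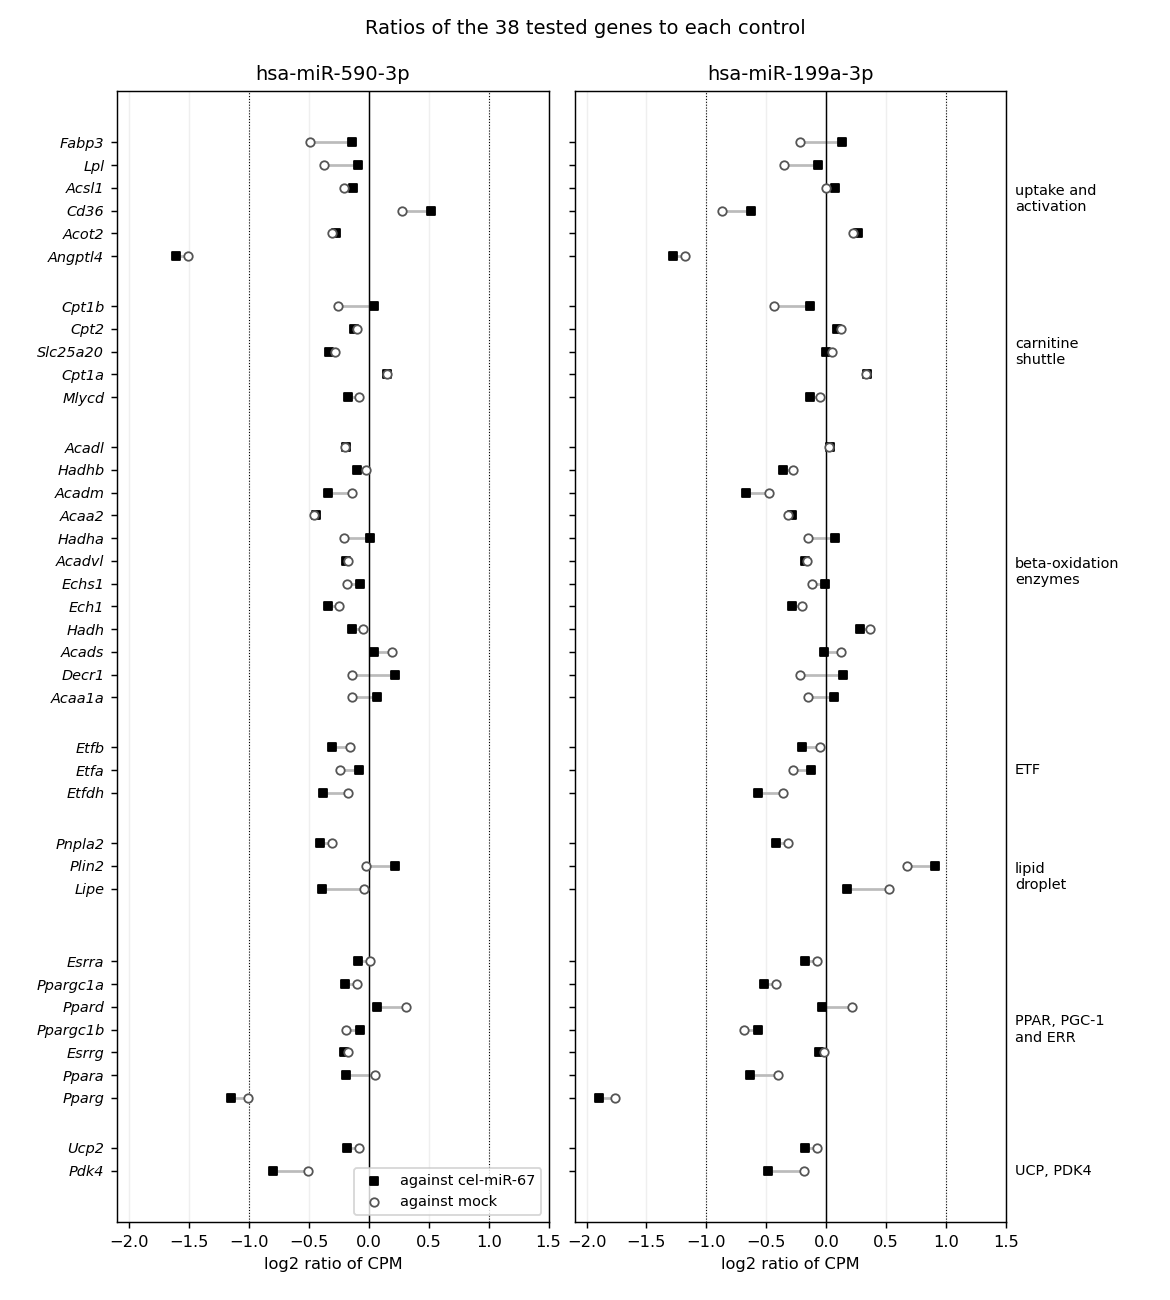
Log2 ratio of CPM of each of the 38 tested genes to cel-miR-67 (filled squares) and to mock (open circles) under hsa-miR-590-3p (left) and hsa-miR-199a-3p (right), grouped by role, with dotted lines at 2-fold. Only Pparg and Angptl4 lay past 2-fold against both controls, under both microRNAs, and Cd36 lay to the right of 0 on the left panel and to the left of 0 on the right panel.

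Among the genes of uptake and activation, Cd36, the main long-chain fatty acid carrier of heart muscle, was the gene that most separated the 2 microRNAs. It had 2841 reads in mock, 2645 in cel-miR-67, 4010 in hsa-miR-590-3p and 2062 in hsa-miR-199a-3p, or 93.5, 79.1, 113 and 51.2 CPM. It was thus highest under hsa-miR-590-3p and lowest under hsa-miR-199a-3p, with the controls between them. Its ratios were 0.52 and 0.28 under hsa-miR-590-3p, against cel-miR-67 and mock in that order, and -0.63 and -0.87 under hsa-miR-199a-3p. Each interval of a ratio is the exact conditional 95% interval (Clopper-Pearson) and covers counting error only, because each condition had 1 library. It treats reads as independent, which PCR copies are not. Between the microRNAs, Cd36 was 2.22-fold higher under hsa-miR-590-3p (interval 2.10 to 2.34). Its reads are spread over 5 records and just 1.32% were placed uniquely, and with unique reads alone the ratio between the microRNAs was 0.77 in place of 1.15 and no longer 2-fold. With unique reads the hsa-miR-199a-3p ratios were -0.46 and -0.15, no longer 1.5-fold lower, and cel-miR-67 stood at 0.31 against mock in place of -0.24. These unique reads were few, at most 23 in any record and library. The counting error of their ratios is therefore large, and no interval was computed for them. The records differed among themselves: by the authors' RPKM, the record of 3399 bases stood at 6.87, 7.73, 14.3 and 6.80 and that of 3450 bases at 11.3, 8.45, 12.2 and 5.63, in the order of the libraries just given. The first was thus highest under hsa-miR-590-3p and near the mock level under hsa-miR-199a-3p, and the second was lowest under hsa-miR-199a-3p.

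Fabp3, the fatty acid binding protein of heart muscle, was the most abundant of all 40 genes per length, with a mean of 505 RPKM (reads scaled to record length and library total). Its level was 403 CPM in mock, 316 in cel-miR-67, 288 in hsa-miR-590-3p and 347 in hsa-miR-199a-3p. It was highest in mock, and the hsa-miR-199a-3p value lay between the controls. Where 4 values follow each other, they stand for mock and cel-miR-67, then hsa-miR-590-3p and last hsa-miR-199a-3p. Lpl, the lipase that frees fatty acids from circulating lipoproteins, had 675, 557, 523 and 529 CPM, lower under both microRNAs than in either control but closer to cel-miR-67 (-0.09 and -0.07) than the controls were to each other (-0.28). Acsl1, which couples fatty acids to coenzyme A, and Acot2, a mitochondrial thioesterase that reverses that step, lay within 0.31 of both controls under each microRNA.

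Angptl4, a secreted inhibitor of Lpl and a known PPAR target, was low in every library. It had 45 reads in mock, 53 in cel-miR-67, 18 in hsa-miR-590-3p and 26 in hsa-miR-199a-3p, so both microRNA libraries lay below both controls. Under hsa-miR-590-3p it was 0.327 times the cel-miR-67 level (interval 0.177 to 0.557) and 0.350 times the mock level (0.187 to 0.606). Under hsa-miR-199a-3p it was 0.413 (0.245 to 0.663) and 0.441 (0.258 to 0.722) times those levels. The gene reached the mean of 1 CPM through the controls alone, at 1.48 and 1.58 CPM against 0.509 and 0.646, so that a gene let in this way had to be lower and its place in the counts above supports nothing.

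The carnitine shuttle, which carries fatty acids into mitochondria, stayed near the controls. Its most abundant member per length was Cpt1b, the muscle form of the rate-limiting transferase, with 144, 117, 120 and 106 CPM, though 6.63% of its reads were placed uniquely. The liver form, Cpt1a, which the fetal and newborn heart also uses, had 54.1 CPM in mock, 53.8 in cel-miR-67, 59.9 in hsa-miR-590-3p and 68.1 in hsa-miR-199a-3p. Cpt1a was the gene of the 38 that lay above both controls under both microRNAs, with ratios of 0.15 and 0.15 for hsa-miR-590-3p and 0.34 and 0.33 for hsa-miR-199a-3p, against a difference of -0.01 between the controls. Scaled to library totals alone, or by the authors' RPKM, Acads, Ppard and Plin2 joined it. Plin2 also did so with uniquely placed reads and with the record with most reads, and Plin5 with no filter. The ratio of Cpt1a to cel-miR-67 under hsa-miR-199a-3p, 1.27, had an interval of 1.19 to 1.34. Cpt2, the inner transferase, Slc25a20, the carnitine carrier, and Mlycd, which removes the Cpt1 inhibitor malonyl-CoA, ranged from -0.33 to 0.12, with the lowest value that of Slc25a20 under hsa-miR-590-3p.

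The 12 beta-oxidation enzymes stayed near the controls. Under hsa-miR-590-3p, 8 of 12 (66.7%, against 36.6% of all genes) lay below both controls and 1 above (Acads, the short-chain dehydrogenase), with medians of -0.12 and -0.15. Under hsa-miR-199a-3p, 6 (50%, near the 41.9% of all genes) lay below and 2 above, Acadl and Hadh, with medians of -0.02 and -0.16. None of the 12 was 1.5-fold away from both controls under either microRNA. Acadl, the long-chain dehydrogenase and the most abundant of the 12 per length, had 459, 456, 400 and 465 CPM, so that the hsa-miR-590-3p library was the lowest.

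The medium-chain dehydrogenase Acadm was the enzyme with the largest decrease under hsa-miR-199a-3p. Its level was 215 CPM in mock, 246 in cel-miR-67, 195 in hsa-miR-590-3p and 154 in hsa-miR-199a-3p, 0.628 times the cel-miR-67 level (interval 0.607 to 0.649) and 0.718 times the mock level (0.693 to 0.743) under hsa-miR-199a-3p. Hadh, the short-chain 3-hydroxyacyl dehydrogenase, went the other way, with 73.2, 77.7, 70.7 and 94.2 CPM and ratios of 0.28 and 0.36 under hsa-miR-199a-3p. Under hsa-miR-590-3p the lowest enzyme was Acaa2, the mitochondrial thiolase, at 167 and 164 CPM in the controls and 121 CPM, with ratios of -0.44 and -0.46. Acaa2 was also lower under hsa-miR-199a-3p, at 134 CPM (-0.29 and -0.32). The 2 subunits of the trifunctional protein, Hadha and Hadhb, did not move alike under hsa-miR-199a-3p, at 0.07 and -0.15 for Hadha and at -0.36 and -0.28 for Hadhb. Ech1, an auxiliary isomerase, was lower under both microRNAs, at -0.34 and -0.25, then at -0.29 and -0.20. Acadvl, Echs1, Decr1 and the peroxisomal thiolase Acaa1a lay within 0.22 of both controls.

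All 3 genes of the electron transfer flavoprotein system lay below both controls under both microRNAs. Of all genes, 36.6% did so under hsa-miR-590-3p and 41.9% under hsa-miR-199a-3p. Etfb, the beta subunit and the most abundant of the 3 per length, had 126, 140, 113 and 122 CPM, and Etfa, the alpha subunit, 178, 160, 151 and 146 CPM. The ratios of these 2 subunits ranged from -0.31 to -0.05, beside differences of 0.16 for Etfb and -0.15 for Etfa between the controls. Etfdh, the oxidoreductase that hands the electrons to ubiquinone, had 146, 169, 130 and 114 CPM, with ratios of -0.38 and -0.17 for hsa-miR-590-3p and of -0.57 and -0.36 for hsa-miR-199a-3p. With library totals, Etfb moved to between the controls under hsa-miR-199a-3p.

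The lipid droplet genes held the 1 gene that was higher by 1.5-fold against both controls. Plin2, which coats lipid droplets and is a known PPAR target, had 1402 reads in mock, 1304 in cel-miR-67, 1608 in hsa-miR-590-3p and 2958 in hsa-miR-199a-3p, or 46.1, 39.0, 45.5 and 73.4 CPM. The hsa-miR-199a-3p library stood above the other 3, which lay close together. There Plin2 was 1.88 times the cel-miR-67 level (interval 1.76 to 2.01) and 1.59 times the mock level (1.49 to 1.70), and under hsa-miR-590-3p its ratios were 0.22 and -0.02. Pnpla2, the first lipase of triglyceride breakdown and the most abundant of these genes per length, had 94.5, 101, 76.0 and 75.5 CPM, lower under both microRNAs when its 3 records were summed. Just 0.0334% of its reads were unique. In the record with most reads, the ratios against mock turned from -0.31 to 0.29 under hsa-miR-590-3p and from -0.32 to 0.54 under hsa-miR-199a-3p. RefSeq lists that record as non-coding. The protein-coding records, of 2635 and 2467 bases, lay below both controls under both microRNAs. By the authors' RPKM they stood at 12.61, 9.76, 7.85 and 6.36 and at 10.97, 8.97, 7.42 and 6.05. Lipe, the lipase of the next step, had 4.64, 5.95, 4.53 and 6.68 CPM, and under hsa-miR-199a-3p its ratios were 0.17 and 0.52, beside a difference of 0.36 between the controls. Plin5, the droplet protein that contacts mitochondria, was below the limit in all libraries, with 11, 13, 15 and 16 reads.

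Among the regulators, Pparg, the PPAR best known from fat cells and the least expressed of the 3 in these cells, was lower under both microRNAs. It had 75 reads in mock, 91 in cel-miR-67, 43 in hsa-miR-590-3p and 29 in hsa-miR-199a-3p, or 2.47, 2.72, 1.22 and 0.720 CPM, and the microRNA libraries lay below both controls. Under hsa-miR-590-3p it was 0.450 times the cel-miR-67 level (interval 0.304 to 0.649) and 0.496 times the mock level (0.331 to 0.726). Under hsa-miR-199a-3p it was 0.269 (0.168 to 0.406) and 0.296 (0.183 to 0.453) times those levels. Scaling to library totals alone moved the hsa-miR-590-3p ratio against mock from -1.01 to -0.92, under 2-fold. The hsa-miR-199a-3p value lay under 1 CPM, and the gene reached that mean with help from the controls, where it was high. Of its reads 8.82% were placed uniquely. The record of 1857 bases had 73, 67, 33 and 23 reads, and that of 1769 bases 2, 24, 10 and 6, so the second was low in mock too and the decrease against mock rested on the first. The 6 adipocyte markers, of a cell type in which Pparg is abundant, were at or near 0 in all libraries, controls included. Brown fat markers were mixed. Ucp1 had at most 1 read and Elovl3 at most 14 in any library. Cidea had 15.1, 10.6, 7.02 and 5.59 CPM, lower under both microRNAs, and Prdm16 had 37, 38.1, 35.7 and 38.2 CPM. The part of fat cells in the Pparg values was not tested.

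With records summed, the other regulators lay within 0.31 of both controls under hsa-miR-590-3p. With hsa-miR-199a-3p most were lower: 6 of the 7 regulators (85.7%, against 41.9% of all genes), Pparg included, lay below both controls, at medians of -0.52 and -0.40. The count was 4 with library totals, beside 32.7% of all genes, and 5 with the record with most reads. With unique reads it was 3 of the 5 regulators still measured. Ppara, the PPAR most tied to fatty acid oxidation in heart and liver, had 730, 949, 882 and 734 reads. Its ratios were -0.64 and -0.40 under hsa-miR-199a-3p, and under hsa-miR-590-3p it lay between the controls. The coactivator Ppargc1a (PGC-1alpha) had 73.8, 79.0, 68.9 and 55.2 CPM, and Ppargc1b (PGC-1beta) had 40.9, 37.8, 35.9 and 25.4 CPM. Both were lowest under hsa-miR-199a-3p, Ppargc1a at -0.52 and -0.42 and Ppargc1b at -0.57 and -0.69. The Ppargc1a values add a record that RefSeq lists as non-coding, at 2.39, 2.95, 3.96 and 2.25 RPKM, highest under hsa-miR-590-3p. Its protein-coding record had 8.56, 8.96, 6.95 and 6.62 RPKM. In that record both microRNA libraries lay below both controls and close to each other. Few reads of Ppara and Ppargc1a were unique, 1.37% and 1.16%, while those of Ppargc1b were all unique. Esrra, the most abundant regulator per length, had 79.4, 85.1, 79.8 and 75.3 CPM, and its relative Esrrg and the broadly expressed Ppard lay no more than 0.31 from either control.

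Pdk4, the kinase that shuts off pyruvate dehydrogenase when fatty acids are burned and another known PPAR target, was lower under hsa-miR-590-3p. It had 34.8 CPM in mock, 42.8 in cel-miR-67, 24.5 in hsa-miR-590-3p and 30.4 in hsa-miR-199a-3p, and both microRNA values lay below both controls. Under hsa-miR-590-3p it was 0.573 times the cel-miR-67 level (interval 0.526 to 0.624) and 0.705 times the mock level (0.643 to 0.771), with a difference of 0.30 on the log2 scale between the controls. Ucp2, an uncoupling protein of the inner membrane found in many tissues, had 75.9, 81.1, 71.7 and 71.6 CPM. Ucp3, the muscle uncoupling protein, had 4, 3, 3 and 4 reads, at or just above the 3 reads taken as the limit of detection (0.0745 to 0.0987 CPM).

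**Figure D3:**
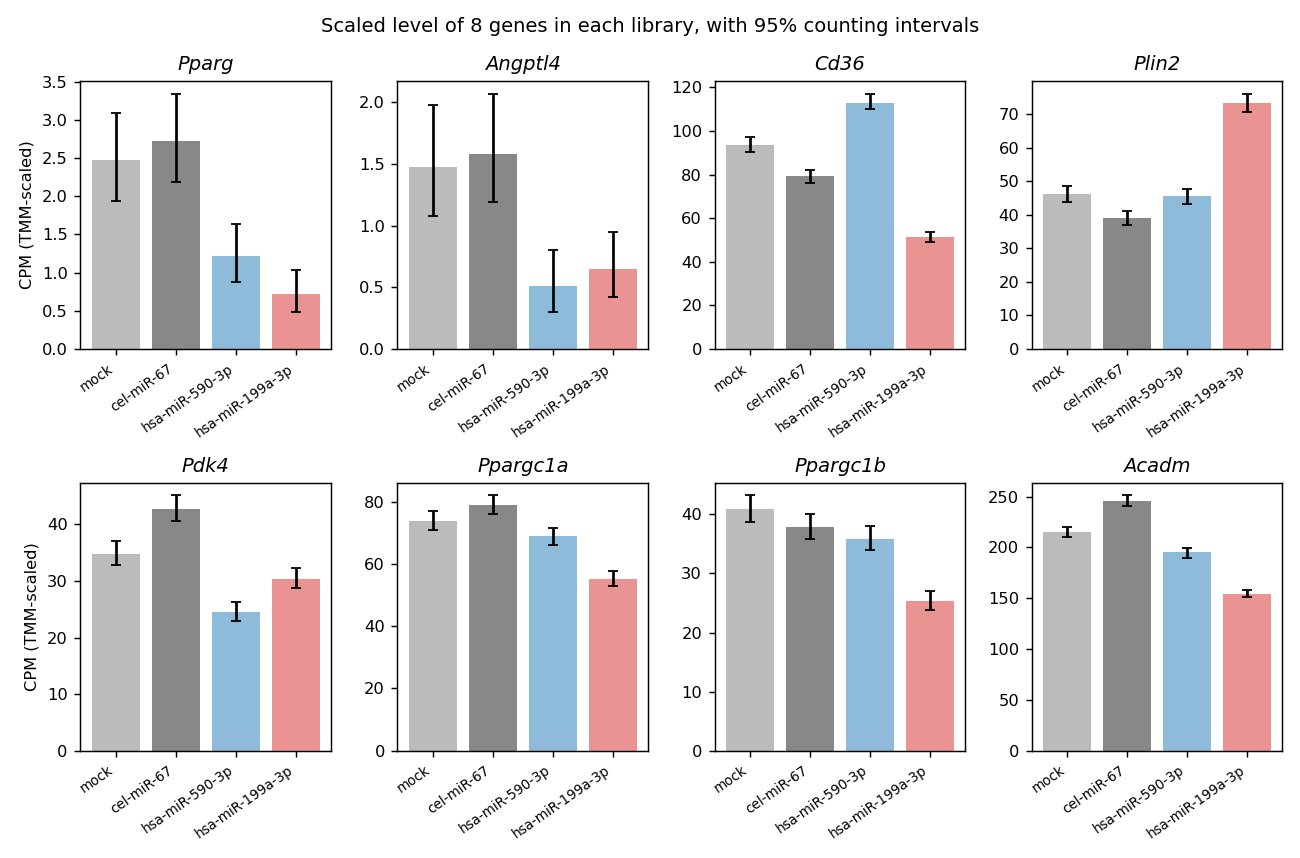
Level in CPM of 8 genes in each of the 4 libraries, with bars from 0 and 95% exact Poisson intervals of the read count, which cover counting error only. Pparg and Angptl4 were lower under both microRNAs, Cd36 was highest under hsa-miR-590-3p and lowest under hsa-miR-199a-3p, Plin2 was highest under hsa-miR-199a-3p, Pdk4 was lowest under hsa-miR-590-3p, and Ppargc1a, Ppargc1b and Acadm were lowest under hsa-miR-199a-3p.

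Set against each other, hsa-miR-590-3p had 1 gene of the 38 higher by 2-fold, Cd36, and 0 lower, against 2.71% and 1.87% of all genes. At 1.5-fold 2 were higher, Cd36 and Pparg, and 1 lower, Plin2, against 10.7% and 6.50% of all genes. The median ratio between the microRNAs was -0.03. By side of the controls, 19 genes (12 with library totals or the authors' RPKM) lay below both under both microRNAs. Another 5 lay below under hsa-miR-590-3p and above under hsa-miR-199a-3p (Cpt2, Acadl, Hadh, Acot2 and Lipe), and Cd36 alone did the reverse. Cd36 kept this place under every setting tried, and Cpt2, Acadl and Acot2 kept theirs. The 2 microRNAs share their controls, so these side counts are not independent of each other. The share of all genes on these joint sides was not computed, so the 19 say nothing particular to these genes.

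**Figure D4:**
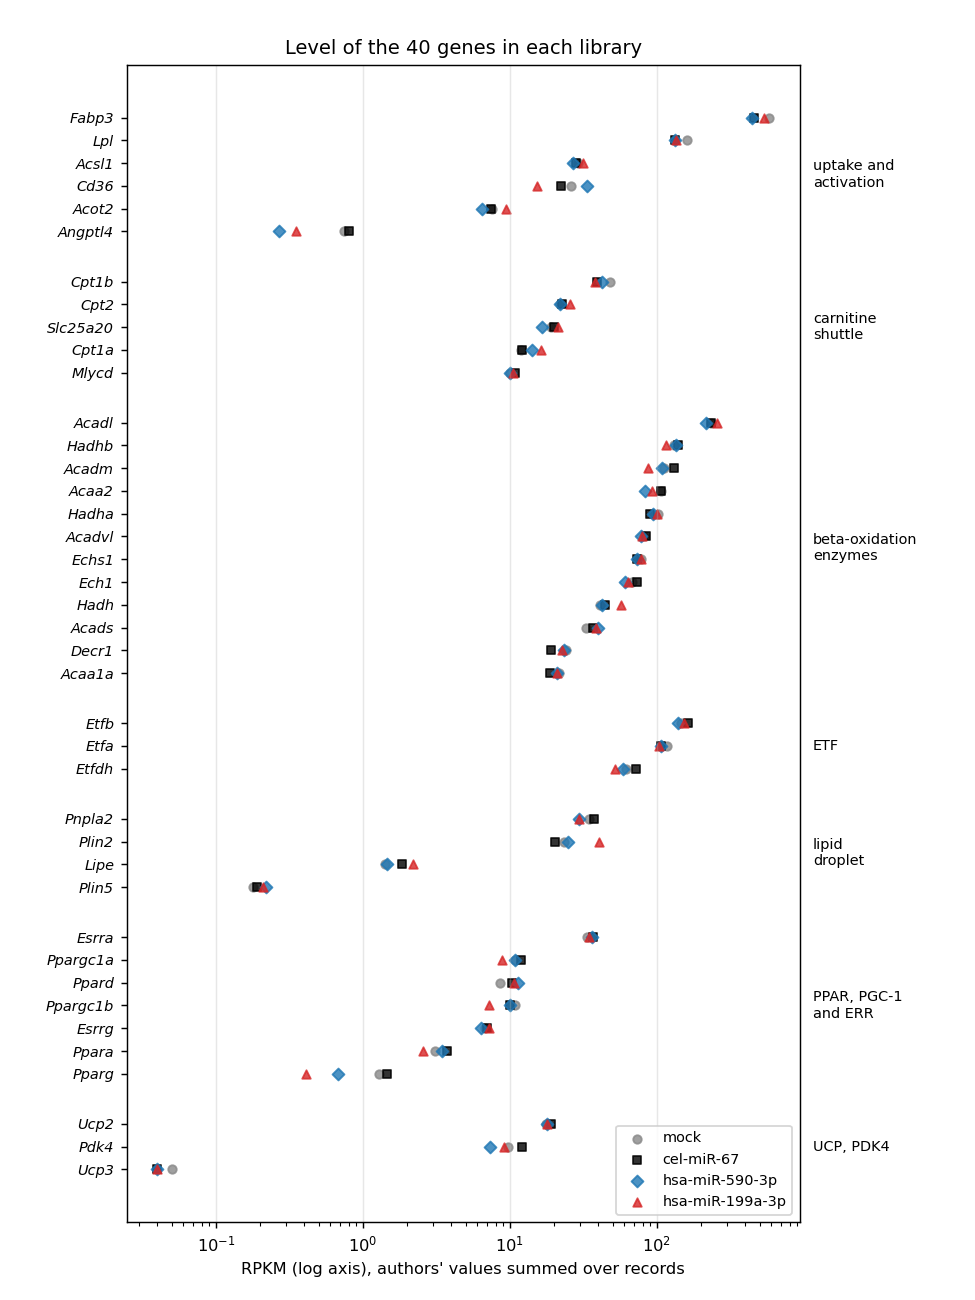
Level of each of the 40 genes in each library as the authors' RPKM summed over records, on a log axis, grouped by role and ordered by mean level within a role. Fabp3, Acadl and Etfb stood at the top of their roles and Ucp3, Plin5, Angptl4 and Pparg at the bottom of theirs, and the 4 libraries overlapped closely for most genes.

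Promoters were searched for the letters that these receptors bind, on both strands, in the RefSeq table (GRCm38.p6). It holds 250 bases before to 50 bases after each gene start, and 34 of the 40 genes were searched in it. Entries on 1 chromosome were left out for the 40 genes but kept for all genes, so the shares below rest on unlike sets. The core motif AGGTCA, shared by PPAR and other nuclear receptors, occurred for 9 of the 34 (26.5%) and for 18.1% of the 27025 genes in the table. The 9 were Acadm, Acadvl, Cd36, Cpt1a, Echs1, Plin2, Plin5, Pparg and Ucp3. The ERR element TCAAGGTCA, which holds the core motif, occurred for 0 of the 34 and 0.466% of all genes, and 2 copies of AGGTCA with 1 base between them, the usual form of a PPAR element, for 0 and 0.0481%. A match is a description of the letters, and no match says only that they are not in this window. For the 3 genes with the core motif that moved by 1.5-fold against both controls under either microRNA, the 60 bases that hold it are shown in transcript direction, with the core motif or its complement TGACCT in capitals. Pparg was chosen by its 2-fold difference and has a match at 2 starts, and Cd36 and Plin2 were added after their values were seen.
Pparg, chr6:115361084-115361143, plus strand, match 28 bases before the start: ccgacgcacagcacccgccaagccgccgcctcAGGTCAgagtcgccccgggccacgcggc
Pparg, chr6:115362289-115362348, plus strand, match 9 bases before the start: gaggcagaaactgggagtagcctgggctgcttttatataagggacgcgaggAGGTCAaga
Cd36, chr5:17836087-17836146, minus strand, match 228 bases before the start: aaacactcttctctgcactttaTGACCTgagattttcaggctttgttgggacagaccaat
Plin2, chr4:86670245-86670304, minus strand, match 218 bases before the start: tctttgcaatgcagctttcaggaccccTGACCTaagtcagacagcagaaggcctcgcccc
The 2 Pparg matches read AGGTCA on the strand of the gene, and those of Cd36 and Plin2 read it on the opposite strand. The 3 genes moved in different ways: Pparg was lower under both microRNAs, Cd36 lower and Plin2 higher under hsa-miR-199a-3p.

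Other genes of the same pathways were taken from 7 lists, whose counts below both controls stand beside 36.6% of all genes under hsa-miR-590-3p and 41.9% under hsa-miR-199a-3p. In the list of other mitochondrial beta-oxidation genes, 10 of 14 (71.4%) lay below under hsa-miR-590-3p and 9 (64.3%) under hsa-miR-199a-3p, and none was 2-fold away. Its most abundant member, the thioesterase Acot13, had 64.8, 55.2, 48.6 and 61.3 CPM. Of 16 genes of peroxisomal beta-oxidation, 11 (68.8%) and 8 (50%) lay below and none was 2-fold away, and the most abundant, the carnitine acetyltransferase Crat, had 255, 281, 241 and 262 CPM. Of 16 genes of malonyl-CoA, AMPK and pyruvate dehydrogenase control, 11 (68.8%) and 9 (56.2%) lay below, and Pdha1, the catalytic subunit of pyruvate dehydrogenase, had 578, 590, 530 and 516 CPM.

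Of 15 measured uptake, binding and activation genes outside the 40, 2 were higher and 2 lower by 1.5-fold under hsa-miR-199a-3p (13.3% each, against 6.72% and 8.38% of all genes). Slc27a6, a fatty acid transport protein of the heart, had 40 reads in mock, 46 in cel-miR-67, 59 in hsa-miR-590-3p and 274 in hsa-miR-199a-3p. It was 4.91 times the cel-miR-67 level (interval 3.61 to 6.92) and 5.12 times the mock level (3.70 to 7.39) there, and was the 1 gene of this list past 2-fold. The 2 lower genes were Vldlr, a lipoprotein receptor, at -0.82 and -1.33, and the acyl-CoA synthetase Acsl4, at -0.67 and -0.73, with 2.27% and 2.28% of reads unique. Of 17 measured genes of triglycerides and lipid droplets, 3 were higher (17.6%) and 2 lower (11.8%) by 1.5-fold under hsa-miR-199a-3p, and none passed 2-fold. The most abundant, G0s2, an inhibitor of Pnpla2, had 16.3, 17.3, 18.3 and 28.6 CPM, with ratios of 0.73 and 0.81 under hsa-miR-199a-3p, and 8.74% of its reads were unique.

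Of 19 measured nuclear receptor partners and cofactors, 6 (31.6%) lay below both controls under hsa-miR-590-3p and 12 (63.2%) under hsa-miR-199a-3p, where the medians were -0.23 and -0.22. The exception past 2-fold was Esrrb, the third ERR receptor, with 140, 161, 196 and 413 reads and ratios of 1.09 and 1.15 under hsa-miR-199a-3p, with 7.25% of reads unique. The genes of ketone body use lay on the other side from most fatty acid genes. Of the 4 measured, 3 (75%, against 35.6% of all genes) lay above both controls under hsa-miR-590-3p. All 4 (100%, against 40.2% of all genes) did so under hsa-miR-199a-3p. The medians were 0.26 and 0.29 for hsa-miR-590-3p, and 0.55 and 0.58 for hsa-miR-199a-3p. Oxct1, the enzyme that commits ketone bodies to oxidation, had 462 CPM in mock, 517 in cel-miR-67, 606 in hsa-miR-590-3p and 630 in hsa-miR-199a-3p. Under hsa-miR-199a-3p, Acat1, the thiolase of the last step, had ratios of 0.82 and 0.72, and Bdh1, which oxidises beta-hydroxybutyrate, 0.91 and 0.87, on reads of which 6.93% were unique.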

How the data were processed

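RNA sequencing covered 4 libraries, 1 per condition, the treatment in the labels giving the group, with 31638930 reads (mock), 34255689 reads (cel-miR-67), 38745528 reads (hsa-miR-199a-3p) and 34452240 reads (hsa-miR-590-3p). For each transcript record the authors deposited its length, its RPKM, a count of all its reads and a count of those placed uniquely, per the file headers. CASAVA 1.8 and mm8 are named in the submitters' processing notes, without a role, with the aligner not given in the sources used here. Total counts include reads shared between records. Of the 40 genes, the 8 with 2 or more records had 0.0334% to 8.82% unique reads. Of the 32 with 1 record, 28 had at least 99%, and Cpt1b, Hadhb, Acaa1a and Acot2 had 6.63% to 63.3%.

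Counts were summed per gene and scaled with edgeR's TMM factors (version 4.0.16, R 4.3.3), with no edgeR test. Log2 ratios of CPM, with 0.5 as prior count, were taken for the 13502 genes whose mean reached 1 CPM, in Python 3.11.15, numpy 2.4.6, pandas 2.3.3, scipy 1.17.1 and matplotlib 3.10.9. With 0 residual degrees of freedom no p-value was computed. A gene counted as 2-fold or 1.5-fold apart when it was so against cel-miR-67 and, in the same direction, against mock. The ratio computation was tested on simulated data. Genes named from other lists were those past 2-fold with at least 50 reads in the highest library, otherwise the most abundant by RPKM; Acat1, Bdh1, Vldlr and Acsl4, and the extra enzymes and regulators with values, were chosen after their values were seen. The 40 genes, lists, thresholds and alternatives were chosen with earlier results of these data known. Current symbols came from RefSeq by accession for 27926 records (77.4%), and 8139 kept the symbol of the file.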

Additional observations from a re-analysis of the deposited data

How the results depend on the processing

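Counts and medians were recomputed with library totals in place of TMM, DESeq2 1.42.0 size factors, uniquely placed reads, no filter, a mean of at least 5 CPM, a prior count of 5, the record with most reads, the authors' RPKM (pseudocount 0.1), each control alone, their mean, and a 1.5-fold threshold. Of 196 such values, 173 kept their size and 23 moved. A count kept its size when it stayed within 1.5 times. A median did so when it stayed between the medians of the single genes' lower and upper interval limits. That range is typical of a single gene and is not the counting error of a median. Of 2112 ratios of 45 genes, 271 moved beyond their counting interval, and none of those at 2-fold or more changed direction. Genes lower by 2-fold under hsa-miR-590-3p numbered 1 in place of 2 with library totals, unique reads, a prior count of 5 or RPKM, and 0 at a mean of 5 CPM, where Pparg and Angptl4 are not tested. Under hsa-miR-199a-3p they numbered 1 with unique reads or RPKM and 0 at a mean of 5 CPM, and 1 gene was higher at 1.5-fold in place of 0 at 2-fold. With library totals or RPKM the median against mock under hsa-miR-590-3p moved to -0.07, those under hsa-miR-199a-3p to -0.04 against each control, and all-gene medians to at most 0.10. There 16 genes lay below and 12 above both controls under hsa-miR-199a-3p, in place of 23 and 7, beside 32.7% and 50.7% of all genes with library totals. Under hsa-miR-590-3p 22 lay below and 5 above, beside 24% and 49% of all genes. Between the microRNAs, genes higher by 2-fold numbered 0 with unique reads and 2 at a 1.5-fold threshold, where 1 was lower. Those higher by 1.5-fold numbered 1 with unique reads or at a mean of 5 CPM. With the record with most reads, 1 gene was 1.5-fold higher in cel-miR-67 than in mock. The causes of these changes were not tested beyond what each setting leaves out. No paired analysis was possible because each condition has 1 library. Depth limits Pparg and Angptl4, with 18 to 91 reads per library, most.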

Other observations

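Values that belong to no comparison above include 2 peroxisomal genes chosen after their values were seen. Scp2, a sterol carrier with a thiolase form, had 134 CPM in mock, 161 in cel-miR-67, 95.8 in hsa-miR-590-3p and 74.0 in hsa-miR-199a-3p, with log2 ratios of -0.75 and -0.49 and of -1.12 and -0.86 against cel-miR-67 and mock. Ehhadh, the bifunctional enzyme of peroxisomal beta-oxidation, had 84, 204, 82 and 113 reads, so that the cel-miR-67 library stood 2.20-fold above mock (counting interval 1.70 to 2.88) and the microRNA libraries were near mock. Plin4, another droplet coat protein, had 44.6, 25.1, 47.4 and 77.2 CPM, higher under hsa-miR-199a-3p as Plin2 was, but with the controls themselves 0.83 apart on the log2 scale. Among the cofactors, Ncoa1, a steroid receptor coactivator, had 66.4, 70.8, 46.8 and 34.9 CPM, with ratios of -1.02 and -0.93 under hsa-miR-199a-3p, just short of 2-fold against mock.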
